A study of Mus musculus with 14 samples.

Results

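The endoplasmic reticulum (ER) chaperone, translocon and unfolded-protein genes examined here are 42 mouse genes, chosen by name and matched by symbol to the identifiers of each table. They are 42 of the 16555 genes found in any table. All 42 were in the input RNA table of 14826 genes, 30 in the m6A-RIP table of 9416 genes, 15 in the Igf2bp3-RIP table of 4527 genes and 17 in the Lin28a-RIP table of 3493 genes. They fall into 6 groups by role: lumenal Hsp70 and Hsp90 chaperones with their co-chaperones (8 genes), lectin chaperones with disulfide isomerases and a collagen chaperone (8), translocon and signal peptidase (12), oligosaccharyltransferase (5), stress sensors and transcription factors (5), and ER-associated degradation (4).

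The study compared cultured muscle stem cells (MuSCs) of mouse skeletal muscle labelled as control with MuSCs labelled as positive for Lin28a (Lin28a+), an RNA-binding protein of embryonic and stem cells. The Lin28a+ cells were sorted, per the study, from mice carrying Lin28a-CreERT2, in which the Lin28a gene drives a tamoxifen-dependent Cre, and the LSL-tdTomato reporter. The genotype of the control cells, the sex and age of the mice and the number of mice per library are not stated in the sources used here, and the labels give no treatment other than the RIP. There were 14 libraries: 2 input, 2 m6A-RIP and 2 Igf2bp3-RIP libraries from each kind of cell, and 2 Lin28a-RIP libraries from Lin28a+ cells. In RIP-seq, RNA that comes down with an antibody is sequenced, and peaks are stretches of a transcript where those reads accumulate. m6A is a methyl mark on adenosines of mRNA, and Igf2bp3 is a protein that reads it.

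Proteins bound for the membrane or for secretion enter the ER through the Sec61 channel, lose their signal peptide and receive N-linked sugars while they are still being made. Chaperones and disulfide isomerases fold them in the lumen, and proteins that fail to fold are moved back to the cytosol and degraded. When unfolded proteins build up, the sensors Ern1 (IRE1), Atf6 and PERK turn on the unfolded protein response: Ern1 splices the Xbp1 mRNA, Atf6 is cut to release a transcription factor, and PERK favours translation of Atf4. Chaperone genes answer to the first pair through short promoter elements. In muscle, this response is known for its part in stem cell survival and in differentiation of myoblasts.

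Estimated counts per gene summed to between 4842915.2 and 6220959.7 in the input libraries. Counts in peaks summed to 21350962 to 31830638 in m6A-RIP, 9215355 to 34142094 in Igf2bp3-RIP and 33908110 to 36610494 in Lin28a-RIP. All 9 myogenic marker genes were in the input table, with summed levels of 9243.5 and 9671.4 CPM (counts scaled to a library total of 1000000) in the control and 11723.2 and 11894.4 CPM in the Lin28a+ libraries. Of these 9 markers 3 rose and 4 fell. Myog, a differentiation factor, rose (log2 fold change 1.86 ± 0.0223, SE), as did Pax7, the factor that defines MuSCs (0.36 ± 0.0448), while Myf5, a factor of proliferating myoblasts, and Des, the muscle intermediate filament, fell (-1.21 ± 0.0287 and -0.53 ± 0.0235). Cdh15 also rose (0.77 ± 0.0322), and Vcam1 and Sdc4 also fell (-1.93 ± 0.133 and -1.1 ± 0.0386). Endothelial and macrophage markers summed to at most 2.81 CPM, and fibro-adipogenic markers to 4.29 and 5.11 CPM in the control and 13.9 and 12.9 CPM in the Lin28a+ libraries, nearly all of it Ly6a, with Dcn and Lum not in the table. Pericyte and smooth muscle markers summed to 149 and 146 CPM against 195 and 197 CPM, nearly all of it Notch3, which rose (0.41 ± 0.0322). Rgs5, a pericyte marker, fell from 2.38 and 2.09 CPM to 0.198 and 0.206 CPM. The part of these markers in the results below was not tested, and in bulk libraries fewer cells of a type and less RNA per cell cannot be told apart.

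The promoters are shown first, since they hold the elements through which ER stress is known to act. RefSeq promoters (250 bases before to 50 after the gene start, build GRCm38.p6) were at hand for 36 of the 42 genes. They were searched on both strands for the ER stress response element (ERSE: CCAAT and CCACG with 9 bases between them), for ERSE-II (ATTGG and CCACG with 1 base between them), for the UPRE (TGACGTGG) and for the amino acid response element to which Atf4 binds (TGATGCAAT). An ERSE was found in 8 of 36 genes, or 22.2%, against 0.137% of all 27025 genes in the promoter table. ERSE-II was found in 2 of 36 genes, against 0.0444% of all genes. The motifs were taken as known elements of ER stress and the members as ER genes, so these shares are a description, not a test. No member had a UPRE or an amino acid response element in its window, against 0.714% and 0.222% of all genes. The sites, with the motif in capitals and each read 5′ to 3′ on the strand of its gene, were:
Hspa5 ERSE: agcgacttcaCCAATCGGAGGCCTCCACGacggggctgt
Hsp90b1 ERSE, distal: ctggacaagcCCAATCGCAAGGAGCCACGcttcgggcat
Hsp90b1 ERSE, proximal: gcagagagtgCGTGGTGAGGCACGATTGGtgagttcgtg
Dnajc3 ERSE: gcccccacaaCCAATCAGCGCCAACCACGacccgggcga
Canx ERSE: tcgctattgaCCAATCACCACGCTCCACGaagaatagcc
Pdia6 ERSE: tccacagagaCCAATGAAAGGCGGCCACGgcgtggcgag
Creld2 ERSE: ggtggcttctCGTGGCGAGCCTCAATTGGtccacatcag
Calr ERSE: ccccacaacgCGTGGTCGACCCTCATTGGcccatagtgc
Syvn1 ERSE: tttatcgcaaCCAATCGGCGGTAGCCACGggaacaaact
Dnajb11 ERSE-II: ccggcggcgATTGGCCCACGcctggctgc
Herpud1 ERSE-II: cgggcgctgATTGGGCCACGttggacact
In Hsp90b1 (its distal site), Hspa5, Dnajc3, Canx, Pdia6 and Syvn1 the motif lay in the direction of the gene, and in Calr, Creld2 and the proximal site of Hsp90b1 it lay in the opposite direction. The motif of Hspa5 began 65 bases and that of Creld2 126 bases before the gene start, and the ERSE-II of Dnajb11 began 8 bases into the transcript.

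The 250 bases before the gene start are shown for Hspa5 (chr2:34771840-34772089, plus strand) and Creld2 (chr15:88819396-88819645, plus strand), because both hold an ERSE, in capitals, while their RNA moved in opposite directions:
Hspa5: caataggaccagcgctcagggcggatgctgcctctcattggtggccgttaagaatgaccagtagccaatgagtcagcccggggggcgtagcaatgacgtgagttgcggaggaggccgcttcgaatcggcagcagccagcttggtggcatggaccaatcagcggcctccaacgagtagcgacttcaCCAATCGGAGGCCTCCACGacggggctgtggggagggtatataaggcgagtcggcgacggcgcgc
Creld2: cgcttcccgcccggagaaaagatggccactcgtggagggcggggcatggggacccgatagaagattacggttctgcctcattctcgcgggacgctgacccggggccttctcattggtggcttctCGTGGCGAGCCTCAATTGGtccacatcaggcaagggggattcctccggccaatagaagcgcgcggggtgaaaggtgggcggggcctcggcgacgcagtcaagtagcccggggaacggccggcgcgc
Among the 8 genes with an ERSE, Hspa5, Hsp90b1, Dnajc3 and Canx fell in Lin28a+ cells, Pdia6 and Creld2 rose, and Calr and Syvn1 did not pass the test. Of the genes with ERSE-II, Dnajb11 fell and Herpud1 did not pass (0.12 ± 0.06). Neither the small rise of Pdia6 (0.10 ± 0.028) nor the fall of Dnajb11 passed with DESeq2, an alternative test used below. The RNA log2 fold changes of the 10 genes ran from -0.83 to 0.43. Over the whole promoter table, 15 genes with an ERSE were tested in RNA, of which 4 rose and 5 fell, and those counts include the members.

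**Figure D1:**
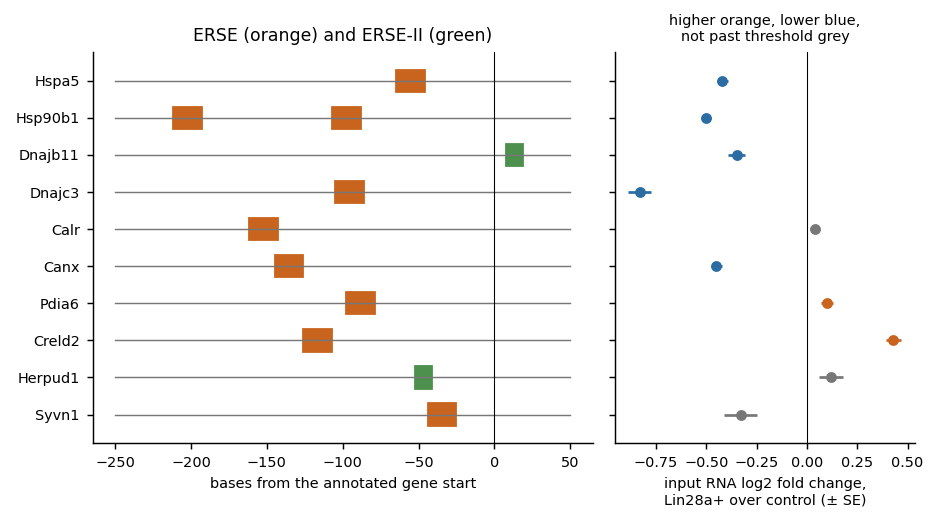
Left, the position of each ERSE (orange) and ERSE-II (green) in the promoters of 10 ER genes, in bases from the annotated gene start (vertical line). Right, the input RNA log2 fold change of the same genes, Lin28a+ over control, with SE bars (n = 2 libraries per group). Genes with the element lie on both sides of 0, from -0.83 for Dnajc3 to 0.43 for Creld2.

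In input RNA, 30 of the 42 ER genes passed the test (edgeR's quasi-likelihood test, Benjamini-Hochberg adjusted p under 0.05 over 11317 genes), 15 higher and 15 lower in Lin28a+ cells. This was 71.4% of the members, against 56.8% of all genes tested (28.1% higher and 28.7% lower). Their median log2 fold change was 0.07, beside 0.01 for all genes. The direction differed between members of the same machine: the Sec61 channel, most of the oligosaccharyltransferase, Xbp1 and Serpinh1 were higher, whereas Hspa5, Hsp90b1, Canx, Sec62, Sec63, Atf6 and several Hsp40 co-chaperones were lower. With DESeq2 in place of edgeR, 17 genes passed, 8 higher and 9 lower, beside 26.9% of all genes tested (13.1% higher and 13.8% lower). No called gene turned direction in any of the alternatives. Levels are given below in CPM scaled with TMM factors, and the Lin28a+ libraries are called A and B and given in that order. The headers of both Lin28a+ input columns name m6A-RIP, so that every Lin28a+ RNA value and every change relative to input rests on the table in which these columns stand. Both Lin28a+ columns of m6A-RIP bear 1 and the same replicate name. Log2 fold changes are Lin28a+ over control with ± SE, from 2 libraries per group. Levels are compared between libraries, not between genes, since the transcript lengths behind the input values are not known.

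**Figure D2:**
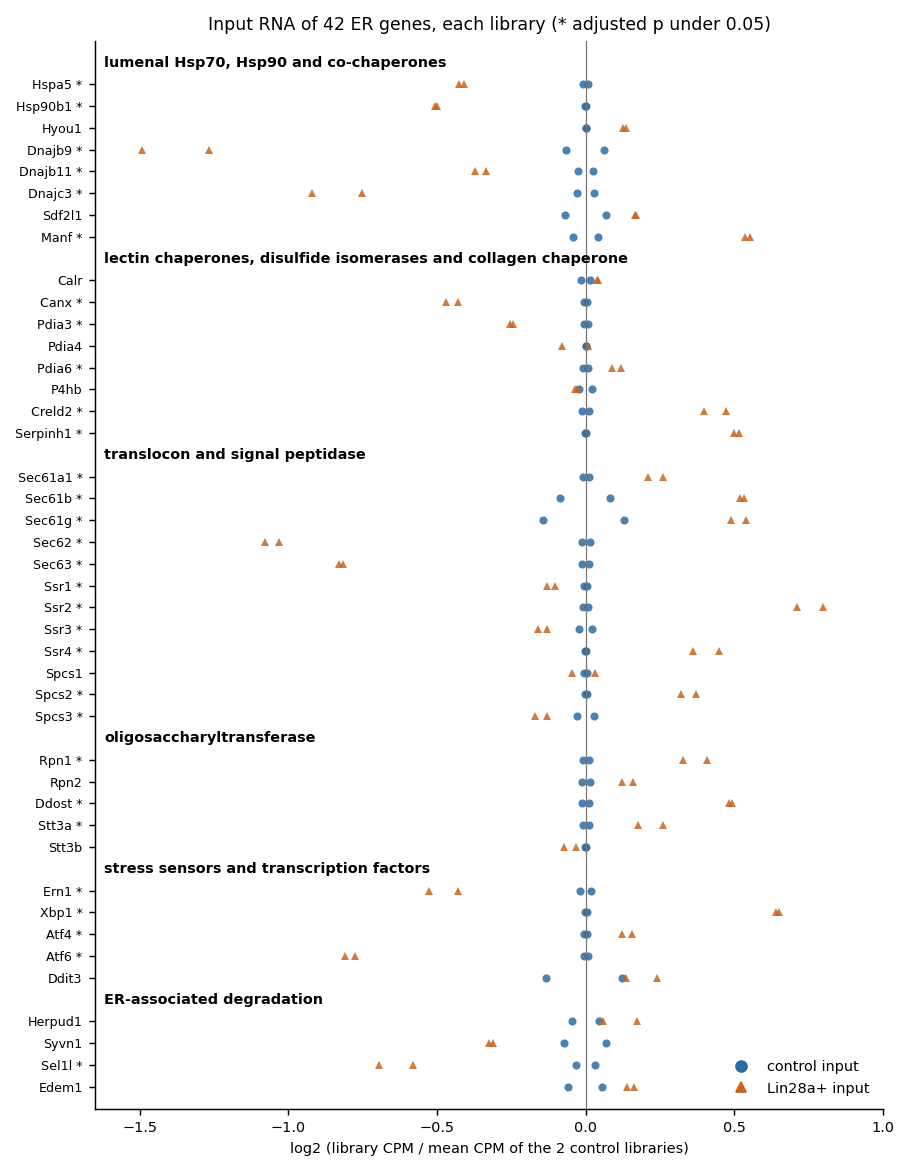
Input RNA of the 42 ER genes in each library, as log2 of its CPM over the mean of the control libraries. Circles are the control libraries and triangles the Lin28a+ libraries, and a star marks an adjusted p under 0.05. Dnajb9 and Sec62 lie farthest to the left and Ssr2 and Xbp1 farthest to the right, and the libraries of the groups do not overlap except in Pdia4 and Spcs1.

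Of the lumenal chaperones and co-chaperones, 5 of 8 fell and 1 rose. Dnajb9, an Hsp40 co-chaperone that holds Ern1 in check, had 51.1 and 55.8 CPM in the control and 22.2 and 19 CPM in the Lin28a+ libraries. Its Lin28a+ libraries both lay well under both control libraries, a log2 fold change of -1.38 ± 0.087 (adjusted p = 9.30e-05), the largest in size among the 42 genes. Dnajc3, an Hsp40 protein that also inhibits PERK, had 170 and 177 CPM in the control and 91.6 and 103 CPM in the Lin28a+ libraries. The groups did not overlap, and the log2 fold change was -0.83 ± 0.057 (adjusted p = 1.22e-04). Hspa5 (BiP), the Hsp70 of the ER lumen and the usual gauge of ER stress, had 227 and 224 CPM in the control and 170 and 168 CPM in the Lin28a+ libraries. Its replicates lay within a few CPM of each other and the groups well apart (-0.42 ± 0.026, adjusted p = 9.31e-05).

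Hsp90b1 (Grp94), the Hsp90 of the lumen, fell alongside (-0.50 ± 0.025), and so did Dnajb11, a co-chaperone of Hspa5 (-0.35 ± 0.04, not past the threshold with DESeq2). Manf, a secreted protein that binds Hspa5, went the other way, from 57.3 and 54.1 CPM in the control to 80.8 and 81.8 CPM in the Lin28a+ libraries (0.55 ± 0.044, adjusted p = 2.04e-04). Hyou1, which exchanges the nucleotide of Hspa5, and Sdf2l1, a partner of Dnajb11, were at 0.13 ± 0.039 and 0.17 ± 0.057 and did not pass.

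In the group of lectin chaperones, disulfide isomerases and the collagen chaperone, 3 of 8 genes rose and 2 fell. Canx (calnexin), the membrane-bound lectin that holds newly glycosylated proteins, had 305 and 307 CPM in the control and 227 and 221 CPM in the Lin28a+ libraries. It fell by 0.45 on the log2 scale (SE 0.027, adjusted p = 7.39e-05), with no overlap. Calr (calreticulin), its soluble counterpart, had 532 and 520 CPM against 541 and 540 CPM (0.04 ± 0.024, adjusted p = 0.218). Pdia3, the isomerase that works with both lectins, fell (-0.25 ± 0.024).

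Of the other isomerases, Pdia4 and P4hb were at -0.04 ± 0.035 and -0.03 ± 0.025 and did not pass, and Pdia6 rose by a small amount (0.10 ± 0.028, adjusted p = 0.0486, not past the threshold with DESeq2, with RLE factors, with at least 10 counts in every library, or when any 1 of the 4 libraries was left out). Creld2, a small stress-induced protein of the lumen, had 87.3 and 85.9 CPM in the control and 120 and 114 CPM in the Lin28a+ libraries (0.43 ± 0.039, adjusted p = 3.27e-04). Serpinh1 (Hsp47), the chaperone of procollagen, had 361 and 360 CPM in the control and 516 and 510 CPM in the Lin28a+ libraries. Its rise (0.51 ± 0.023, adjusted p = 3.37e-05) was the largest in this group.

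Other genes of folding and disulfide formation, 22 in a list written for comparison, rose in 9 cases and fell in 3. Over all 6 such lists, read from the edgeR fit alone, 27 of 78 genes tested rose and 19 fell. Of all genes tested, 28.1% rose and 28.7% fell. The genes named from each list are those with the largest changes past the threshold. Pdia5, a disulfide isomerase, rose from 5.99 and 4.99 to 12.8 and 14.3 CPM (1.31 ± 0.121), and Ppib, a proline isomerase that acts on collagen, from 474 and 480 to 761 and 766 CPM (0.68 ± 0.0221). Dnajc1, another Hsp40 protein of the ER, fell (-0.86 ± 0.124).

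In the translocon and signal peptidase group 11 of 12 genes passed, 6 higher and 5 lower. All subunits of the Sec61 channel rose: Sec61b from 48.1 and 54.1 to 73.9 and 73.2 CPM (0.52 ± 0.061), Sec61g (0.52 ± 0.108) and Sec61a1, the pore (0.24 ± 0.042). Sec61a1 and Sec61g did not pass with DESeq2 or without 1 or another of the input libraries. Sec62 and Sec63, which help proteins enter after translation and recruit Hspa5 to the channel, fell. Sec62 had 99.1 and 101 CPM in the control and 48.9 and 47.4 CPM in the Lin28a+ libraries, a 2.08-fold fall (-1.06 ± 0.04, adjusted p = 1.92e-05). Sec63 had 58.1 and 59.1 CPM against 33 and 33.3 CPM (-0.82 ± 0.044, adjusted p = 5.70e-05). Both sets of libraries were tight beside the gap between the groups.

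The translocon-associated protein (TRAP) complex, which sits beside the channel, was also split. Ssr2, its beta subunit, had 67.6 and 66.9 CPM in the control and 110 and 117 CPM in the Lin28a+ libraries. This was the largest rise of the 42 genes (0.75 ± 0.042, adjusted p = 6.48e-05). Ssr4, the delta subunit, rose (0.41 ± 0.047), and Ssr1 and Ssr3, alpha and gamma, fell slightly (-0.12 ± 0.028 and -0.15 ± 0.027). In signal peptidase, which cuts off signal peptides, Spcs2 rose (0.35 ± 0.045), Spcs3 fell (-0.15 ± 0.033) and Spcs1 was at -0.01 ± 0.043. Ssr1, Ssr3, Ssr4, Spcs2 and Spcs3 did not pass with DESeq2, nor did Ssr1 and Spcs3 without Lin28a+ library A. Ssr1 was also lost when scaled by total counts, with no filter and without control library 2. Of 13 other genes of signal recognition and translocation, 4 rose, among them Srp68 of the signal recognition particle (0.64 ± 0.0444), and 4 fell, among them Srp54a (-0.52 ± 0.0575) and Tram2 (-0.48 ± 0.0696).

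The oligosaccharyltransferase, which moves the sugar chain onto the nascent protein, had 3 of 5 genes higher and 0 lower, and Rpn2 (0.14 ± 0.038) and Stt3b (-0.05 ± 0.025) did not pass. Ddost, a structural subunit, had 602 and 613 CPM in the control and 855 and 848 CPM in the Lin28a+ libraries (0.49 ± 0.023, adjusted p = 3.75e-05). Rpn1, which passes substrates to the enzyme, had 137 and 139 CPM against 183 and 173 CPM (0.37 ± 0.036, adjusted p = 4.11e-04). Stt3a, the catalytic subunit that works at the channel, had 62 and 62.9 CPM against 70.6 and 74.8 CPM (0.22 ± 0.045, adjusted p = 0.00929, but 0.378 with DESeq2 and 0.114 without Lin28a+ library B). All 5 other subunits tested passed: 4 rose, among them Ostc (0.65 ± 0.0324) and Krtcap2 (0.54 ± 0.0339), and Magt1 fell (-0.57 ± 0.0643).

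Among stress sensors and transcription factors, Xbp1 and Atf4 rose while Atf6 and Ern1 fell. Xbp1, whose spliced form turns on chaperone and degradation genes, had 87.1 and 87.5 CPM in the control and 136 and 137 CPM in the Lin28a+ libraries. Its replicates lay close together (0.64 ± 0.03, adjusted p = 3.63e-05), and the counts do not separate its spliced from its unspliced form. Atf6 had 220 and 222 CPM in the control and 126 and 129 CPM in the Lin28a+ libraries, a 1.73-fold fall with no overlap (-0.79 ± 0.029, adjusted p = 1.79e-05).

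Ern1, the kinase and nuclease that splices Xbp1, had 18.2 and 18.7 CPM against 12.8 and 13.7 CPM (-0.48 ± 0.07, adjusted p = 0.00578). It did not pass with DESeq2 (adjusted p = 0.298) or without Lin28a+ library A (0.0617). Atf4 had 461 and 464 CPM against 515 and 504 CPM, a small rise (0.14 ± 0.024, adjusted p = 0.00385, and 0.16 with DESeq2). Ddit3 (CHOP), the factor tied to death under prolonged stress, had 8.8 and 10.5 CPM against 10.6 and 11.4 CPM and did not pass (0.18 ± 0.111, adjusted p = 0.425).

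Of 16 genes of the PERK arm and targets of Atf4 or CHOP, 6 rose and 3 fell, where 28.1% of all genes tested rose and 28.7% fell. Trib3, a pseudokinase, rose from 9.37 and 8.85 to 24.4 and 26.8 CPM (1.49 ± 0.0836) and Asns, asparagine synthetase, from 91.4 and 92.7 to 179 and 191 CPM (1.01 ± 0.041). Slc7a11, the cystine transporter, fell (-0.99 ± 0.139). Of 6 genes of site proteases and related membrane-bound factors, 3 rose and 2 fell: Mbtps2, the protease that releases Atf6, fell (-0.84 ± 0.0825), as did Creb3l1, a factor of secretory cells (-0.78 ± 0.0275), and Atf6b rose (0.55 ± 0.0523).

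In ER-associated degradation, 1 of 4 members passed. Sel1l, the adaptor of the ubiquitin ligase Syvn1, had 28.5 and 29.8 CPM in the control and 19.5 and 18 CPM in the Lin28a+ libraries (-0.64 ± 0.066, adjusted p = 5.17e-04, and 0.0559 with DESeq2). Syvn1 (Hrd1) was at -0.33 ± 0.082, Herpud1, a scaffold of the same complex, at 0.12 ± 0.06, and Edem1, which marks glycoproteins for disposal, at 0.16 ± 0.059. Of 16 other genes of the process tested, 6 fell and 1 rose: Edem3 fell from 54.1 and 60.5 to 23.2 and 25.8 CPM (-1.23 ± 0.0853), Herpud2 fell (-0.56 ± 0.0838), and Edem2 rose (0.54 ± 0.0901).

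The m6A-RIP table held 30 of the 42 genes (71.4%, against 65.6% of all genes tested in RNA). Summed per gene, 25 of the 30 passed, 13 higher and 12 lower, or 83.3% against 66.3% of all 9416 genes (32.5% higher and 33.8% lower). The median log2 fold change was 0.11, beside 0.01 over all genes. Scaling by total counts moved the median of all genes by -0.102, and Atf4, Herpud1 and Edem1 then did not pass, which left 10 higher and 12 lower, beside 25.4% higher and 40% lower of all genes tested. An m6A-RIP count moves with the amount of RNA as well as with the mark.

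The strongest m6A-RIP rises by p were those of Ssr2, Serpinh1, Manf, Xbp1 and Ssr4. Ssr2 had 123 and 129 CPM in the control and 217 and 220 CPM in the Lin28a+ libraries (0.79 ± 0.042), and Serpinh1 had 601 and 603 against 885 and 904 CPM (0.57 ± 0.036). Manf rose by 0.68 ± 0.044, Xbp1 by 0.58 ± 0.047 and Ssr4 by 0.84 ± 0.153, the last from 9.62 and 8.77 to 18.6 and 14.6 CPM. In none of these did the groups overlap.

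The strongest falls by p were those of Sec62, Dnajb9, Sel1l, Hsp90b1 and Hspa5. Sec62 had 271 and 274 CPM in the control and 138 and 141 CPM in the Lin28a+ libraries (-0.96 ± 0.04, adjusted p = 8.79e-10), and Dnajb9 had 58.5 and 68 against 23 and 25.1 CPM (-1.39 ± 0.087, adjusted p = 3.23e-08). Sel1l (-0.65 ± 0.043), Hsp90b1 (-0.58 ± 0.041) and Hspa5 (-0.51 ± 0.036) fell with no overlap either. Each of these 10 genes had moved in the same direction in RNA.

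Across the 30 genes, RNA and m6A-RIP changes ran together, with Pearson's r = 0.917 and Spearman's rho = 0.874 across genes, which are not independent replicates, and 27 of 30 had the same sign. In both assays 8 genes rose and 11 fell, and 0 passed in opposite directions. No such correlation or counts over all genes were at hand, so these do not set the ER genes apart. Hyou1, Sdf2l1, Calr, Herpud1, Syvn1 and Edem1 passed in m6A-RIP alone, and Pdia6, Sec61a1, Sec61g and Rpn1 in RNA alone. Of the former, Calr did not pass in m6A-RIP without control library 1 or without Lin28a+ library B, Herpud1 without control library 1 or Lin28a+ library A, and Edem1 without Lin28a+ library A, while Sdf2l1 also passed in RNA when scaled by total counts and without control input library 1. Whether the changes of these genes differed between the assays is given by the test relative to input.

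**Figure D3:**
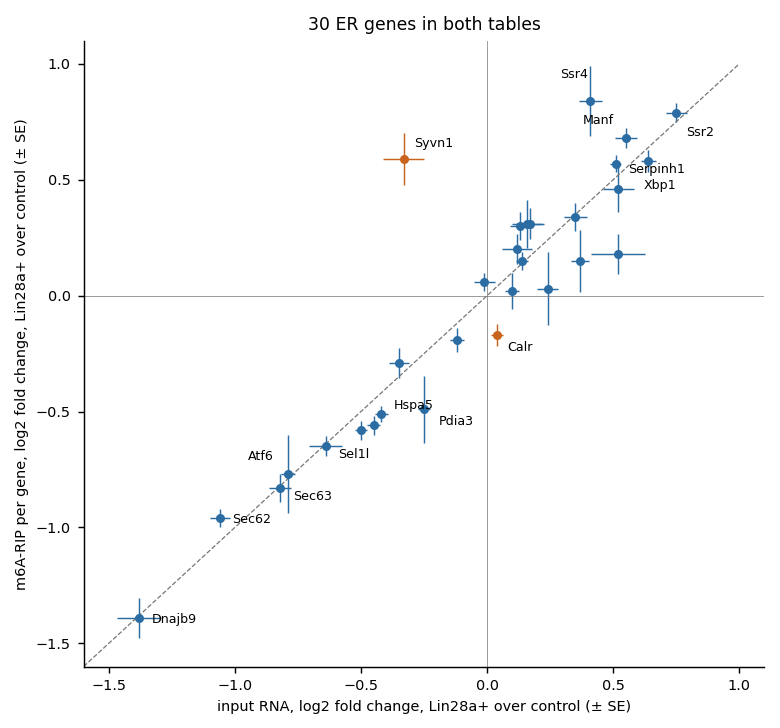
Log2 fold change of Lin28a+ over control in input RNA (horizontal) and in m6A-RIP summed per gene (vertical) for 30 ER genes, with SE bars, n = 2 libraries per group and assay. The dashed line marks equal change, and Syvn1 and Calr, in orange, are the genes that passed the test of m6A-RIP relative to input.

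Relative to input, that is in the interaction of cells and assay, 2 of 30 genes passed, 1 higher and 1 lower, or 6.7% against 7.16% of all 7950 genes (3.06% higher and 4.1% lower). Syvn1 was higher: its m6A-RIP level went from 15.1 and 13.9 to 21.4 and 22.5 CPM while its RNA had 14.4 and 15.9 against 12.2 and 12.1 CPM. In m6A-RIP both Lin28a+ libraries were above both control libraries, in RNA both were below, and the difference was 0.90 ± 0.149 on the log2 scale (adjusted p = 0.00375). Calr was lower: its m6A-RIP level went from 85.6 and 83.9 to 76.1 and 74.7 CPM with its RNA at 0.04 ± 0.024. The difference of -0.22 ± 0.045 (adjusted p = 0.0122) did not pass with DESeq2 or without 1 of the 3 input libraries control 2, Lin28a+ A or Lin28a+ B. The SE of Calr lay below the 0.049 of its m6A-RIP change alone, since 1 dispersion (a measure of spread) per gene was fitted across both assays. The other 28 genes had differences between -0.35 and 0.41.

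Each row of the m6A-RIP table is 1 peak of a transcript, and the 30 genes had 66 rows. Of these, 46 passed, 19 higher and 27 lower (69.7%, against 61.8% of all 18881 rows, 30% higher and 31.8% lower). Scaling by total counts, which moved the median of all rows by -0.154, gave 12 higher and 30 lower, beside 20.3% higher and 40.5% lower of all rows tested. Of the 18 genes with more than 1 row, 0 had rows that passed in both directions, and no such share over all genes was at hand. All 5 rows of Hsp90b1 fell (-0.61 to -0.47), as did all 4 of Canx (-0.71 to -0.47) and all 3 of Hspa5, Sec62 and Sec63. Both rows of Serpinh1 rose alike (0.62 and 0.63), whereas those of Ssr2 rose by 0.41 ± 0.126 and 0.89 ± 0.051. Sel1l had the widest span: 3 of its rows fell, by between 0.33 and 1.33 on the log2 scale, and the row on the transcript ENSMUST00000178462 was at 0.35 ± 0.178. Differences between rows of 1 gene were not tested.

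In Igf2bp3-RIP, 0 of the 66 peaks in 15 of the 42 genes passed (edgeR, 0 at an unadjusted p under 0.05, and 0 with DESeq2), where 0.123% of all 19465 peaks did with edgeR and 1.35% with DESeq2. Summed per gene, 0 of 15 passed (0 at an unadjusted p under 0.05, 0 with DESeq2), where 0.287% of all 4527 genes did with edgeR and 2.54% with DESeq2. The log2 fold changes per gene ran from -0.45 to 0.28 with SEs of 0.19 to 0.393, beside SEs of 0.0227 to 0.111 for the 42 genes in RNA. What size of change could be detected at this spread was not tested. Pdia6 had 93.4 and 105 CPM in the control and 80.6 and 65.2 CPM in the Lin28a+ libraries (-0.45 ± 0.223, adjusted p = 0.665). Hspa5 had 815 and 694 against 616 and 563 CPM (-0.36 ± 0.233, adjusted p = 0.782), and Pdia3 had 254 and 267 against 228 and 202 CPM (-0.28 ± 0.196, adjusted p = 0.784). In these 3 genes the groups did not overlap. However, the control libraries of Hspa5 and the Lin28a+ libraries of Pdia6 lay farther apart than the gap between the groups. The Lin28a+ libraries of Pdia3 lay about as far apart as that gap.

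Relative to input, 0 of 15 genes passed in Igf2bp3-RIP (edgeR, 4 at an unadjusted p under 0.05, and 0 adjusted with 2 unadjusted by DESeq2), where 1.04% of all 3927 genes did with edgeR and 1.68% with DESeq2. Per gene, 1 dispersion (a measure of spread) was fitted across input and Igf2bp3-RIP, which varied between replicates by 2.48% and 25.4%. For some genes the SE fell below that of Igf2bp3-RIP alone (Sec63 0.147 against 0.193), so SEs and p-values here may be too small. Of the 4 genes at an unadjusted p under 0.05, Pdia6 was at -0.78 ± 0.197 (adjusted p = 0.087). Sec63 (0.57 ± 0.147, 0.0871), Dnajb9 (1.16 ± 0.359, 0.124) and Atf6 (0.59 ± 0.212, 0.16) were above 0. Input was scaled here over these 3927 genes, not over all genes tested in RNA. All genes with an Igf2bp3-RIP peak had a median RNA change of -0.26. These values are therefore not plain differences from the RNA changes given above. Pdia3, at -0.25 in RNA, had input levels of 1285.5 and 1260.4 against 1255.3 and 1265.4 CPM on this scale. In Dnajb9 the Igf2bp3-RIP level was 38.5 and 29.6 CPM in the control and 42.6 and 26.3 CPM in the Lin28a+ libraries, with overlap, beside its fall in RNA. Sec63 had 402 and 373 against 382 and 383 CPM, again beside a fall in RNA. Without the first Lin28a+ Igf2bp3-RIP library Pdia6 and Sec63 passed, beside 14.5% of all genes, and without the second Dnajb9 did, beside 5.04%.

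Lin28a-RIP was made from Lin28a+ cells alone, so it gives where Lin28a was found and no comparison of cells. At least 1 peak lay in 17 of the 42 genes, or 40.5%, against 25.4% of all genes tested in RNA, and the 17 genes held 111 peaks. For Igf2bp3 it was 15 of 42, or 35.7% against 32.9%. Sel1l had 13 Lin28a-RIP peaks, Hsp90b1 and Canx 12 each, Sec63 11, and Ssr1 and Stt3a 9 each. No peak of either protein was listed for 23 genes, among them all Sec61 subunits, Ssr2, Ssr4, the signal peptidase genes, Ddost, Xbp1, Atf4, Ern1 and Ddit3.

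In CPM per kilobase of peak, a scale on which genes can be compared, Lin28a-RIP was densest in Hsp90b1, with 637 and 646 in the 2 libraries, and in Hspa5, with 621 and 616. Pdia3 (513 and 515), Canx (454 and 450), Serpinh1 (454 and 435) and Calr (402 and 395) followed, and Edem1 was lowest, with 34 and 35.7. The replicate libraries differed by less than these steps, apart from that between Canx and Serpinh1. The median over the 17 genes was 186, beside 47.3 over all 3493 genes with a peak. This density moves with the amount of RNA, for which no value per length was at hand.

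In Hspa5 the 5 peaks covered 3.36 kb of a gene of 4.44 kb, from chr2:34772053-34772712 at the start to chr2:34775362-34776374 at the end. The last of these peaks held the most reads, 30414 and 28108. In Hsp90b1 the 12 peaks were spread over the 14.6 kb of the gene, and the largest, at chr10:86693925-86694804, held 19921 and 18212 reads. All 111 Lin28a-RIP peaks and 63 of 66 Igf2bp3-RIP peaks overlapped the span RefSeq gives their gene, the exceptions being 3 peaks that the table assigns to Edem1.

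**Figure D4:**
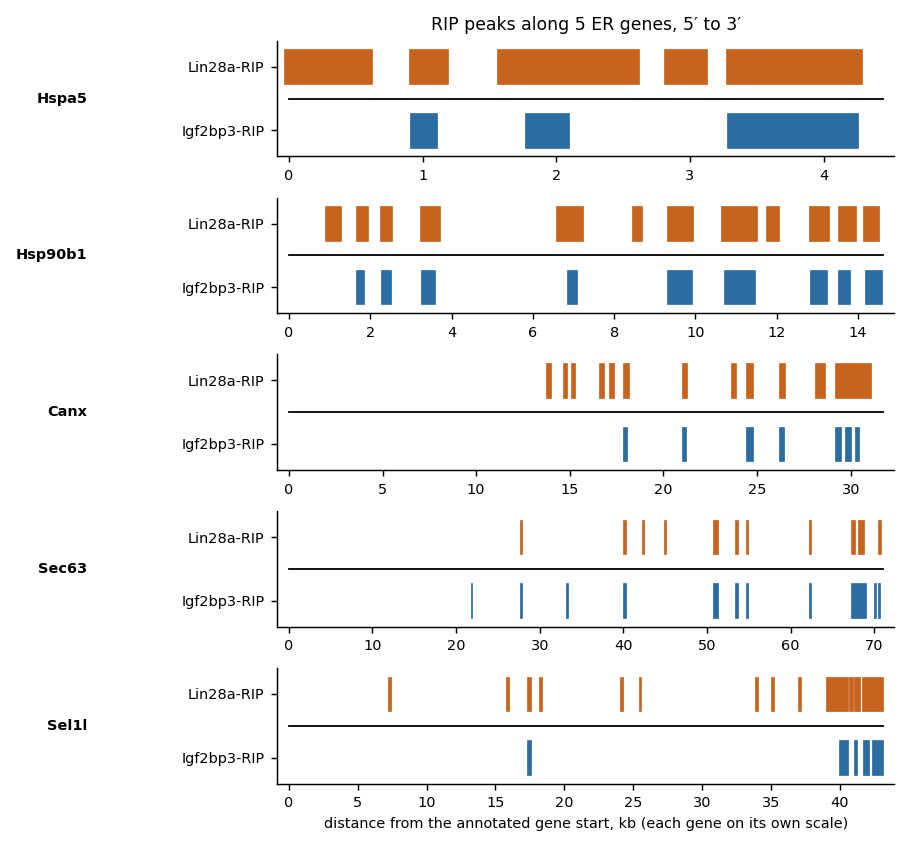
Lin28a-RIP peaks (orange) and Igf2bp3-RIP peaks (blue) along Hspa5, Hsp90b1, Canx, Sec63 and Sel1l, in kb from the annotated gene start, each gene on its own scale and drawn 5′ to 3′. The black line is the gene. In Hsp90b1 9 of 12 Lin28a-RIP peaks overlap an Igf2bp3-RIP peak and in Sel1l 4 of 13, while all Igf2bp3-RIP peaks of both genes (9 and 5) lie over a Lin28a-RIP peak.

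Of the 111 Lin28a-RIP peaks of ER genes, 47 shared at least 1 base with an Igf2bp3-RIP peak (42.3%, Wilson 95% interval 33.6 to 51.6), against 52.4% of all 21616 Lin28a-RIP peaks. Of the 66 Igf2bp3-RIP peaks, 48 overlapped a Lin28a-RIP peak (72.7%, 61 to 82), against 60.4% of all 19465. Peaks of 1 gene are not independent, and the intervals cover counting error only. All 9 Igf2bp3-RIP peaks of Hsp90b1 and all 7 of Canx lay over a Lin28a-RIP peak, as did 8 of 11 in Sec63, but 1 of 6 in Edem1. Hyou1, Calr, Serpinh1 and Rpn1 had Lin28a-RIP peaks and no Igf2bp3-RIP peak of their own. Hyou1 had 7 such peaks with 40074 and 35013 reads, and the others had 1 each. Dnajb9 and Atf6 had Igf2bp3-RIP peaks and no Lin28a-RIP peak.

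The RNA change was set beside the peaks. Of the 13 genes with peaks of both proteins, 10 fell, 2 rose and 1 did not pass, with a median log2 fold change of -0.42. Of the 23 genes with no peak of either, 11 rose, 3 fell and 9 did not pass, with a median of 0.17. With DESeq2, 7 of the 13 fell and 0 rose (24.3% and 6.16% of all genes with peaks of both), and 6 of the 23 rose and 0 fell (16% and 9.65% of all genes with neither). Without Lin28a+ library A, 9 of the 13 fell and 1 rose (41.3% and 12.4% of all such genes), and 10 of the 23 rose and 1 fell (27.3% and 16%). Without Lin28a+ library B, 10 of the 13 fell and 0 rose (42.3% and 12% of all such genes), and 10 of the 23 rose and 3 fell (27.4% and 16.5%). These classes follow the gene to which the files assign each peak, although by position the 1 Lin28a-RIP peak of Calr shared bases with an Igf2bp3-RIP peak. The 4 genes assigned Lin28a-RIP peaks alone (Hyou1, Calr, Serpinh1 and Rpn1) had 2 higher and 0 lower (Serpinh1 and Rpn1 rose), and Dnajb9 and Atf6, with Igf2bp3-RIP peaks alone, both fell. All genes showed the same order: 48.9% of 2289 genes with peaks of both proteins fell and 15.3% rose, with a median of -0.28, whereas 20.3% of 7017 genes with neither fell and 33.6% rose, with a median of 0.14.

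Gene length moved with both measures. The span of the gene had a median of 28.4 kb for the 13 ER genes with peaks of both proteins and 8.57 kb for the 23 with none, and 50.1 and 15.7 kb over all genes of those classes. Spearman's rho between span and RNA log2 fold change was -0.441 across the 42 genes and -0.338 across 10955 genes. These are descriptions across genes that share libraries, and the part of length in the difference between the classes was not tested.

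**Figure D5:**
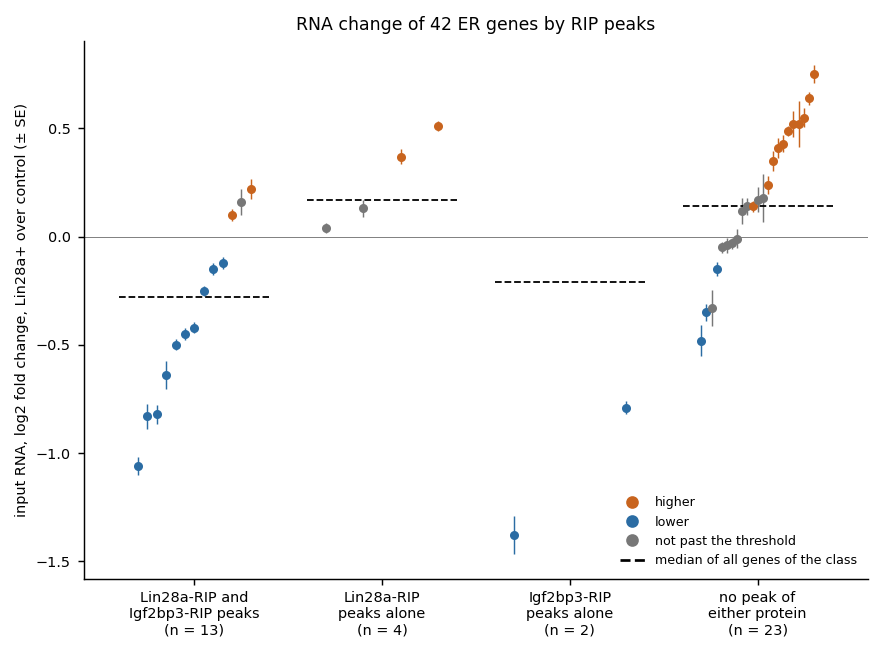
Input RNA log2 fold change of each of the 42 ER genes, Lin28a+ over control, with SE bars, split by whether the RIP tables list peaks in the gene. Orange genes were higher, blue genes lower and grey genes did not pass, and the dashed line is the median of all genes of the class. Most genes with peaks of both proteins lie under 0 and most with neither lie above it.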

How the data were processed

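The 42 genes and all lists were chosen with earlier results of these data known. The authors removed adapters and low-quality bases, aligned reads with HISAT2 2.0.4 and called peaks with MACS2 1.4.3; the submitters' notes name both mm10 and GRCh38, and the identifiers are those of mouse. The program that counted reads, and whether replicates were pooled for peaks, are not given in the sources used here. The RIP files deposited by the authors hold whole-number counts of reads per peak, and the input file holds estimated counts per gene, neither scaled between libraries. Part of the input values look like means over transcripts. In the input table both Lin28a+ headers name m6A-RIP (replicates 1 and 2); these columns were taken as input because of the table that holds them. In the m6A-RIP table both Lin28a+ headers are identical. All 4 were therefore assigned to a group only and called A and B.

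Input values were rounded. Tests were run on all features with edgeR 4.0.16 in R 4.3.3 (TMM factors, filterByExpr, quasi-likelihood test, Benjamini-Hochberg adjusted p under 0.05). SE is the log2 fold change divided by the root of the F statistic. Changes relative to input come from the interaction of cells and assay, with 1 dispersion per gene across both assays. The TMM factors for these were computed within each assay over the genes found in both. The alternatives were DESeq2 1.42.0, RLE factors, total counts, no filter, at least 10 counts in every library, each library left out, and a replicate block. Scripts were tested on simulated data. The labels do not say that replicates came from separate animals or cultures, so p-values measure the spread between these libraries, which may be technical. Within a group, replicates differed by more than sampling noise: chi-square per degree of freedom was 1.70 and 1.80 in input, over only 512 and 504 genes with whole-number values, 3.62 to 3.82 in m6A-RIP and Lin28a-RIP, and 33.5 and 36.4 in Igf2bp3-RIP, over 16480 to 17927 peaks.

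Genes given with values per library are, for RNA, up to 3 per group with the largest change past the threshold and the stress factors with Hspa5; for the other tests, up to 5 per direction by p, or the 3 with the smallest p where none passed. Others were chosen after their values were seen. Promoters and gene spans are from RefSeq (GRCm38.p6). Lin28a was not analysed here, nor were the protein sequences of the members.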

Additional observations from a re-analysis of the deposited data

How the results depend on the processing

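No called gene changed sign, but the balance of higher to lower calls moved: in RNA from 15 and 15 to 17 and 14 with total counts (29.8% higher and 27.1% lower of all genes) and 12 and 15 without Lin28a+ library B (23.1% and 23.8%), and in m6A-RIP per gene from 13 and 12 to 10 and 12 with total counts. In RNA 17 of 42 genes passed with DESeq2 and 25 to 29 with 1 library left out (46.2% to 50.4% of all genes), and under the other scalings and filters the count was 29 to 31. m6A-RIP per gene and per row stayed within 1.5 times their counts (22 to 25 genes and 36 to 42 rows with 1 library left out, beside 61.4% to 62.2% of all genes and 53.8% to 55.9% of all rows). For m6A-RIP relative to input, 1 gene (Syvn1) passed with DESeq2 (4.24% of all genes), and 1 to 3 passed with 1 library left out (3.77% to 7.82%). In Igf2bp3-RIP relative to input, 0 to 2 passed with 1 library left out (0% to 14.5%). The replicate block, possible only for Igf2bp3-RIP, called 1 peak (in Hsp90b1), 0 genes, and 6 genes relative to input (Dnajb9, Dnajc3, Sec62 and Sec63 higher, Pdia6 and Stt3a lower), beside 10.2% of all peaks, 8.26% of all genes and 33.2% of all genes relative to input. The labels give no shared batch for equal numbers. The difference between replicates correlated across 19465 peaks between the groups with r = 0.703, which with only 2 numbers is a hint from the data, not the design. No paired analysis was possible for input and m6A-RIP because the headers of the Lin28a+ input columns name another assay and those of m6A-RIP repeat 1 name. Peaks of ER genes overlapped in 33.3% (all peaks 43%) where each had to cover 50% of the other, and in 40% (Wilson interval 31.3 to 49.3, which holds the 45.4% of all peaks) where every library had at least 100 counts. Lin28a-RIP peaks were found in 17 genes also with that minimum, and in 13 with at least 2 peaks. No share of all genes was at hand for either minimum. Without them, at least 1 peak lay in 20.3% of all input genes, beside 25.4% of those tested. The causes of these differences were not tested, except that fewer libraries were fitted when 1 was left out. C-terminal retention signals were not run. With a spread of 0.19 to 0.393 (SE, log2), Igf2bp3-RIP limits the size of change that could be called.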
